A study of Mus musculus with 9 samples.

Results

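The Id genes of the mouse are Id1, Id2, Id3 and Id4, and their transcripts were followed in NSCs, the neural stem cells of the subventricular zone, while the cells were moved from proliferation medium to medium with BMP4. They were found by the Ensembl identifiers that map to these 4 symbols, and they are 4 of the 55704 genes in the table. All 4 passed the filter on low values, which left 20207 genes for the test. RNA was sequenced in 9 libraries, 3 for each culture, which the submitters call biological replicates. The sources used here do not say whether these came from separate cell isolations, so the p-values measure the spread between these libraries.

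The NSCs came from C57BL/6 mice aged 8 to 9 weeks. Each isolation pooled 2 female and 2 male mice, and the cells were expanded for at least 3 passages with bFGF and EGF. The control cultures, called bFGF/EGF-treated NSCs, were collected on day 0, after 16 to 18 h of adherent growth with 20 ng/ml of bFGF and of EGF. In the bFGF/BMP4-treated NSCs, EGF was then exchanged for 20 ng/ml of BMP4 while bFGF was kept, and in the BMP4-treated NSCs both growth factors were exchanged for 20 ng/ml of BMP4. Both were collected on day 6. The control therefore differed from the treated cultures in time as well as in medium, and these cannot be told apart, whereas the treated cultures differed from each other in bFGF alone.

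Id proteins are helix-loop-helix proteins without the basic stretch that binds DNA. They pair with the E proteins, the common partners of tissue-specific bHLH activators such as Olig2, and so keep them from their E-box sites. Their genes are classical direct targets of BMP signalling, in which the receptors phosphorylate SMAD1, SMAD5 and SMAD9 and these enter the nucleus with SMAD4. In the adult brain, Id proteins are known as keepers of the stem cell state and as brakes on neuronal and oligodendrocyte differentiation.

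In GRCm39, Id1 lies on chromosome 2 at 152566218-152579544 and Id3 on chromosome 4 at 135870808-135873066. Id4 lies on chromosome 13 at 48414558-48419502, and these 3 are on the plus strand. Id2 is on the minus strand of chromosome 12 at 25143798-25147282. Each gene overlaps at least 1 annotated gene on the other strand. Averaged over all 9 libraries, Gm36287 and Gm59395 at Id2 had at most 0.0946 FPKM and Gm49291 at Id4 had 0.148 FPKM. Gm75058 at Id1 and Gm57159 at Id3 were not in the table. When the Id transcripts were aligned to the genome with BLAST, no other place matched at least 150 bases at 90% identity or more.

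The 250 bases before the start of Id2, Id3 and Id4 are printed here because the members are regulated at transcription by SMADs, and they come from the RefSeq promoter table with GRCm38.p6 coordinates. Of the 4 genes 3 had an entry. Capitals mark GGCGCC, a sequence bound by SMAD1 and SMAD5, the SMAD box GTCTG, and the CCAAT box read as ATTGG, each on either strand.
Id2, chr12:25096093-25096342, minus strand: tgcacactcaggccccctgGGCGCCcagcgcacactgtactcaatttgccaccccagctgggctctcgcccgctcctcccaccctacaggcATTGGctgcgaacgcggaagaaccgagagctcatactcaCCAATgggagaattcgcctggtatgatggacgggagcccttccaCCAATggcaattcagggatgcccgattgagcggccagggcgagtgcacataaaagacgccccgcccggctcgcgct
Id3, chr4:136143572-136143821, plus strand: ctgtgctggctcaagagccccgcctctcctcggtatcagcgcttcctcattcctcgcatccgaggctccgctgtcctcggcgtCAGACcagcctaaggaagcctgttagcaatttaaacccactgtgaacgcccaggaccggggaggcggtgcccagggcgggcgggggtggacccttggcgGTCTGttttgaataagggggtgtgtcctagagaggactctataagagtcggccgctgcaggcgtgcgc
Id4, chr13:48260866-48261115, plus strand: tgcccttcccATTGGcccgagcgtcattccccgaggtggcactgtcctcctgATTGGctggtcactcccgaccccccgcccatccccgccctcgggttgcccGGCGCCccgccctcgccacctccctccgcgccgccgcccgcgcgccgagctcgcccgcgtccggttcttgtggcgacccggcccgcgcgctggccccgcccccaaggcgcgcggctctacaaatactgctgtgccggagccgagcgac
These windows were searched on both strands for these 3 motifs, the E-box CANNTG, and TATAAA with its variants ATAAAA and also TATAAG, and matches of different motifs did not overlap. GGCGCC was found 1 time in Id2, at 231 bases before the start, and 1 time in Id4, at 148 bases. It occurred in 9.59% of the 32851 promoters of the table. GTCTG was found 2 times in Id3 alone, at 167 and 68 bases before the start, and in 42.2% of all promoters. ATTGG was found 3 times in Id2 and 2 times in Id4, and in 33.8% of all promoters. The E-box letters, the site of bHLH pairs, were found 1 time in Id2, at 196 bases before the start, and in 66.2% of all promoters. Of the TATA-like letters, ATAAAA stood 28 bases before the start of Id2 (17.0% of all promoters) and TATAAG 29 bases before that of Id3 (6.65%), and TATAAA, in 12.4% of all promoters, had no match. The windows held 62.8% G and C in Id2 and Id3 and 75.6% in Id4, beside a median of 52.4% over all promoters. A match is a description of the letters and not a site at which a factor was seen.

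In bFGF/EGF-treated NSCs, Id1, Id2 and Id3 were present at means of 21.0 to 35.9 FPKM, a level in fragments that is set per gene length and per library size, and Id4 at 0.936 FPKM. All 4 were higher in both BMP4 media, and Id4, the lowest member by FPKM in every library, had the largest log2 fold changes against control but the smallest differences in FPKM. Between the BMP4 media, Id3 and Id4 were higher without bFGF, while the libraries of Id1 and Id2 overlapped.

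Id1, known from BMP-treated and adult stem cells alike, measured 17.1, 28.3 and 17.5 FPKM in the bFGF/EGF libraries. It measured 186, 137 and 105 FPKM with bFGF/BMP4 and 198, 309 and 177 FPKM with BMP4. Every treated library was above every control library, and the treated groups overlapped, since the lowest BMP4 library was below the highest bFGF/BMP4 library.

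Id2, which also pairs with the retinoblastoma protein in the control of the cell cycle, measured 30.3, 40.5 and 36.8 FPKM in bFGF/EGF-treated NSCs. It measured 230, 232 and 156 FPKM with bFGF/BMP4 and 234, 371 and 200 FPKM with BMP4. As for Id1, the treated libraries lay above all controls and overlapped each other.

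Id3, a close relative of Id1 that is often induced with it, measured 29.5, 39.7 and 24.2 FPKM in the controls. It measured 139, 104 and 72.4 FPKM with bFGF/BMP4 and 259, 390 and 205 FPKM with BMP4. Here the 3 cultures did not overlap, and the lowest BMP4 library stood above the highest bFGF/BMP4 library.

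Id4, which is known to hold adult hippocampal stem cells in quiescence, measured 0.978, 0.756 and 1.07 FPKM in the controls, which corresponded to 64, 46 and 73 fragments. It measured 53.4, 59.7 and 46.3 FPKM with bFGF/BMP4 and 141, 141 and 115 FPKM with BMP4. The 3 cultures were again separate, and Id4 had the smallest spread of the 4 genes among the treated libraries, with 53.2 ± 6.7 FPKM and 132 ± 15 FPKM (SD, n = 3).

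**Figure D1:**
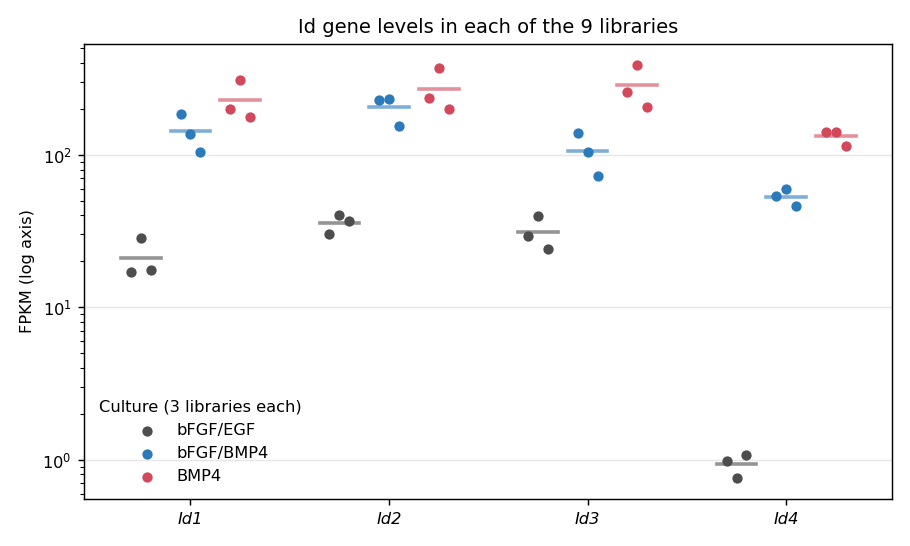
FPKM of Id1, Id2, Id3 and Id4 on a log axis, with 1 point for each library and a line at the mean of the 3 libraries of a culture. All treated libraries are above the controls for each gene, and Id4 is near 1 FPKM in bFGF/EGF-treated NSCs and between 46.3 and 141 FPKM in the treated libraries.

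The libraries moved together for Id1, Id2 and Id3. Replicate 2 was the highest BMP4 library for these 3 genes, replicate 3 was the lowest BMP4 library for all 4, and replicate 3 was also the lowest bFGF/BMP4 library for all 4. BMP4 replicate 2 had an FPKM sum over all genes of 326302, while the sums of the other libraries were 256230 to 294652. After the group means were removed, log2(FPKM + 0.1) of Id1 and Id3 correlated at r = 0.961 over the 9 libraries, of Id1 and Id2 at 0.865 and of Id2 and Id3 at 0.841. Id4 followed them less within cultures, with r = 0.393 against Id2, 0.119 against Id3 and -0.02 against Id1. These are descriptions, since all genes of a library share its RNA and its scaling.

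The first comparison asks what the exchange of EGF for BMP4 with bFGF kept, and the 6 days of culture, went with. A gene was called higher or lower at an adjusted p of at most 0.05 in limma with Benjamini-Hochberg adjustment over all 20207 genes, together with a fold change of at least 2 on the log2(FPKM + 0.1) scale. All 4 Id genes were called higher in bFGF/BMP4-treated NSCs, where 16.5% of the genes tested were called higher, and all 4 had groups that did not overlap, as 30.2% of the genes had in this direction.

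The log2 fold change of Id4 was 5.69 (SE 0.15, adjusted p = 1.2e-08), a fold of 51.6, and 0.228% of the genes tested had a larger one. Id1 had a log2 fold change of 2.76 (SE 0.28, adjusted p = 3.1e-05) and Id2 one of 2.504 (SE 0.24, adjusted p = 2.4e-05). Id3 had the smallest, at 1.73 (SE 0.29, adjusted p = 0.00082), a fold of 3.32, which 8.59% of the genes tested exceeded. The 95% interval of Id4, 5.34 to 6.03, did not reach those of the other 3, which lay between 1.07 and 3.39.

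The second comparison sets BMP4 alone against the same controls and shares them with the first, so the values are given side by side. All 4 Id genes were called higher in BMP4-treated NSCs, with 21.3% of the genes tested called higher. Their groups were separate, as for 32.6% of the genes in this direction. Id4 had a log2 fold change of 7.003 (SE 0.15, adjusted p = 2.4e-09), a fold of 128, and ranked at place 39 of all genes. Id1 followed with 3.44 (SE 0.28, adjusted p = 5e-06), Id3 with 3.17 (SE 0.29, adjusted p = 1.1e-05) and Id2 with 2.86 (SE 0.24, adjusted p = 6.6e-06). Between 2.82% and 4.66% of the genes tested had larger log2 fold changes than these 3.

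The third comparison asks what the removal of bFGF went with at day 6, in the same amount of BMP4. Of the 4 Id genes 2 were called higher in BMP4-treated than in bFGF/BMP4-treated NSCs, and 8.41% of the genes tested were called higher. Id3 had a log2 fold change of 1.43 (SE 0.29, adjusted p = 0.0062), a fold of 2.70. Id4 had one of 1.31 (SE 0.15, adjusted p = 0.00022), a fold of 2.49. Both had groups that did not overlap, which 20.5% of the genes had in this direction.

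Id1 and Id2 did not pass the test in this comparison. The difference of Id1 was 0.67 on the log2 scale with a 95% interval of 0.04 to 1.30 (adjusted p = 0.13), and that of Id2 was 0.35 with an interval of -0.19 to 0.90 (adjusted p = 0.37). A rise of Id1 by the 2-fold used for the calls lies inside its interval, so these data do not show that Id1 was alike in both media, and for Id2 the interval ends just short of 2-fold. Without BMP4 replicate 2, the library with the largest FPKM sum, the log2 fold changes were 0.43 for Id1, 0.09 for Id2, 1.18 for Id3 and 1.27 for Id4, with the same 2 genes called.

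**Figure D2:**
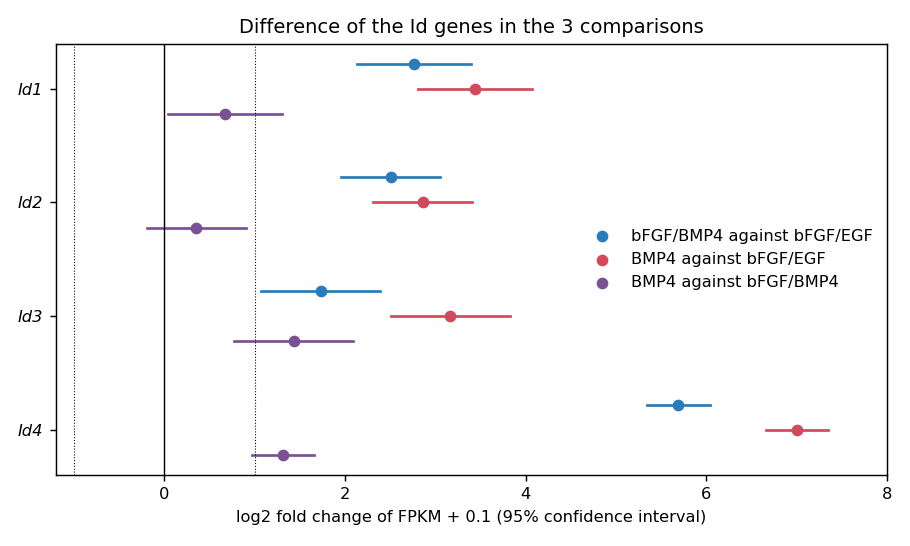
Log2 fold change of FPKM + 0.1 for each Id gene in the 3 comparisons, with 95% intervals from limma, a solid line at 0 and dotted lines at the 2-fold threshold. Both comparisons with bFGF/EGF are to the right of the threshold for all 4 genes, and in BMP4 against bFGF/BMP4 the interval of Id2, -0.19 to 0.90, includes 0.

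FPKM is per length, so the levels of the members can be set side by side within a library. In bFGF/EGF-treated NSCs the mean level was 35.9 ± 5.1 FPKM for Id2, 31.1 ± 7.9 for Id3, 21.0 ± 6.4 for Id1 and 0.936 ± 0.163 for Id4 (SD, n = 3). In bFGF/BMP4-treated NSCs the order was Id2 at 206 ± 44, Id1 at 143 ± 41, Id3 at 105 ± 34 and Id4 at 53.2 ± 6.7 FPKM. In BMP4-treated NSCs it was Id3 at 285 ± 95, Id2 at 268 ± 90, Id1 at 228 ± 71 and Id4 at 132 ± 15 FPKM. The ranges of neighbours in these orders overlapped except at the step down to Id4, which was separate in each culture. Within the libraries, however, each order held in 3 of 3 on the FPKM scale. The orders depend on the gene lengths used. In fragments not divided by length, Id1 made up 15.5% and Id3 17.5% of the sum with bFGF/BMP4 on average. With BMP4, Id2 made up 33.4%, Id4 27.0% and Id3 26.0%.

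On the FPKM scale, the place of Id3 is what changed most. The log2 ratio of the levels of Id1 and Id3 was -0.58 ± 0.18 in the controls, 0.45 ± 0.07 with bFGF/BMP4 and -0.31 ± 0.09 with BMP4 (SD, n = 3). In FPKM, Id1 thus exceeded Id3 only in the 3 bFGF/BMP4 libraries. Which gene is higher depends on the gene lengths, which the FPKM values imply to be 1160 bases for Id1 and 1791 for Id3. In fragments not divided by length, Id1 was below Id3 in these libraries too (3464 and 4014, 2443 and 2852, 1787 and 1907). The shift of the ratio between cultures does not depend on these lengths. The ratios of the bFGF/BMP4 libraries, 0.40 to 0.53, did not overlap those of the other cultures, and the smallest p of an exact permutation test with 3 against 3 is 0.1.

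The summed level of the 4 genes was 88.9 ± 17.7 FPKM in bFGF/EGF-treated NSCs, 507 ± 117 FPKM with bFGF/BMP4 and 913 ± 266 FPKM with BMP4. Id4 made up 1.10% ± 0.36 of this sum in the controls, 10.7% ± 1.8 with bFGF/BMP4 and 15.0% ± 2.9 with BMP4. The share of Id3 was 34.9% ± 3.9, 20.5% ± 2.1 and 30.9% ± 1.4 in the same order, and that of Id2 was 40.7% ± 4.9, 40.8% ± 2.9 and 29.1% ± 1.3. Id1 moved least, with 23.3% ± 2.3, 28.0% ± 2.4 and 24.9% ± 0.9. Without division by gene length the share of Id4 was 2.18%, 19.6% and 27.0%. The libraries did not overlap for Id4 between the controls and either treated culture, and for Id3 between bFGF/BMP4 and either other culture. The same held for Id2 between BMP4 and either other culture, and for Id1 between the BMP4 media. Each of these had an exact permutation p of 0.1 (two-sided), the smallest that 3 against 3 libraries allow. The share of Id4 overlapped between the BMP4 media (exact permutation p = 0.2).

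Of the 3 E proteins, which Id proteins bind, Tcf12 and Tcf3 were lower with BMP4 where the Id genes were higher. Tcf12 measured 44.8, 37.6 and 41.5 FPKM in the controls, 8.34, 8.40 and 10.0 FPKM with bFGF/BMP4 and 8.32, 6.74 and 8.44 FPKM with BMP4. The controls did not overlap either treated culture, as for 27.5% and 27.8% of the genes tested in the lower direction. Tcf12 was lower in both treated cultures, by a log2 fold change of -2.20 (SE 0.13, adjusted p = 9.8e-07) and of -2.39 (SE 0.13, adjusted p = 4.4e-07). Tcf3, which encodes E12 and E47, averaged 48.4 ± 8.6, 30.9 ± 0.9 and 23.7 ± 1.0 FPKM and was called lower with BMP4 at a log2 fold change of -1.02 (adjusted p = 0.00012). This value was close to the threshold and stayed short of 2-fold, at -0.999 to -0.93, when bFGF/EGF replicate 1 or 2 or BMP4 replicate 1 or 2 was left out and with a pseudocount of 1, median-ratio scaling or quantile normalization. Tcf4 averaged 18.5 ± 3.7, 18.1 ± 2.7 and 12.7 ± 1.5 FPKM and was not called. Thus 1 of 3 E proteins was called lower with bFGF/BMP4, where 14.1% of the genes tested were called lower, 2 of 3 with BMP4, where the share was 15.4%, and none between the treated cultures in limma, where 2 had an unadjusted p under 0.05 and limma-voom on rebuilt fragments also called 0.

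The summed E protein level was 108 ± 8.0, 57.9 ± 2.7 and 44.1 ± 2.9 FPKM. The ratio of the summed Id level to it was 0.826 ± 0.189 in bFGF/EGF-treated NSCs, 8.71 ± 1.70 in bFGF/BMP4-treated NSCs and 21.0 ± 7.6 in BMP4-treated NSCs (SD, n = 3). The libraries of the 3 cultures did not overlap, and the exact permutation p was 0.1 in each comparison. On the log2 scale the mean ratios were -0.30, 3.10 and 4.33, and they were -2.98, 0.46 and 1.75 when fragments were not divided by gene length. These ratios are of transcript levels, and proteins were not measured here.

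**Figure D3:**
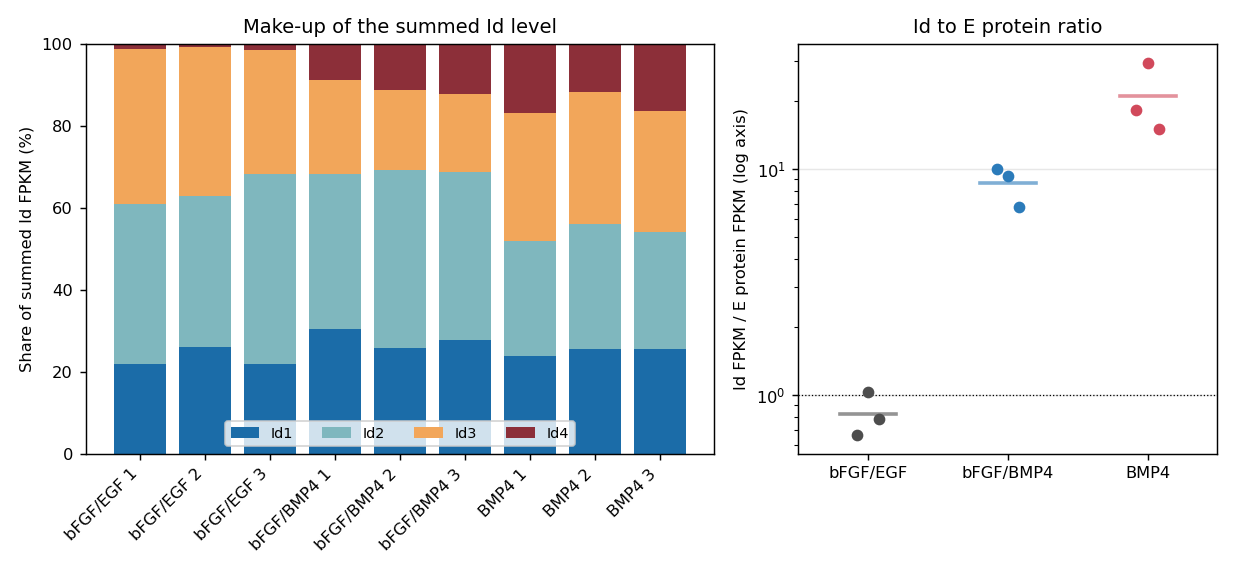
Left, the share of each Id gene in the summed Id FPKM of each library, in percent. Right, the ratio of summed Id FPKM to the summed FPKM of Tcf3, Tcf4 and Tcf12 on a log axis, with 1 point for each library, a line at the mean of 3 and a dotted line at a ratio of 1. The share of Id4 is 1.10% in the controls and 15.0% with BMP4 on average, and the ratio goes from 0.826 to 21.0.

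Class II bHLH factors are the tissue-specific partners of E proteins. Of the 18 on the list, 14 were below the filter, among them the neurogenins, and 4 were tested. Olig2, a determinant of the oligodendrocyte lineage, overlaps opposite-strand genes with means of at most 5.76 FPKM over the 9 libraries. It measured 597, 654 and 445 FPKM in the controls, 195, 218 and 323 FPKM with bFGF/BMP4 and 20.3, 24.4 and 50.3 FPKM with BMP4. The 3 cultures did not overlap, which 18.3% of the genes showed in the lower direction between the BMP4 media, and Olig2 was called lower in all 3 comparisons, with log2 fold changes of -1.22 (SE 0.33, adjusted p = 0.011), -4.25 (SE 0.33, adjusted p = 3.4e-06) and, between the BMP4 media, -3.03 (SE 0.33, adjusted p = 0.00014). Its neighbour Olig1 averaged 1352 ± 245 FPKM in the controls, 1254 ± 189 FPKM with bFGF/BMP4 and 275 ± 89 FPKM with BMP4. It was called lower with BMP4 against either other culture, at -2.33 (adjusted p = 4.4e-05) and -2.23 (adjusted p = 0.00024). The 5 OPC markers, most of their sum Cspg4, summed to 13.2 to 17.9 FPKM in the controls, 3.43 to 4.49 FPKM with bFGF/BMP4 and 2.23 to 4.37 FPKM with BMP4. All 5 were called lower in both comparisons with control, beside 14.1% and 15.4% of the genes tested. However, 4 of the 5 averaged below 1 FPKM in each culture. Sox10, Gpr17 and Bcas1 averaged under the filter of 0.1 FPKM in both treated cultures. These genes were thus tested only through their control levels, which largely set the direction of their calls. What part the 5 OPC markers had in the levels of Olig1 and Olig2 was not tested.

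Atoh8, which is counted among the BMP targets too, averaged 1.31 ± 0.28, 52.8 ± 6.4 and 49.9 ± 4.8 FPKM, with log2 fold changes against control of 5.24 (adjusted p = 2.5e-08) and 5.16 (adjusted p = 1.6e-08). Neurod4 stayed below 1 FPKM on average in each culture, with its highest mean, 0.600 FPKM, in BMP4, where it was called higher than in either other culture. Its means with bFGF/EGF and bFGF/BMP4, 0.0827 and 0.0251 FPKM, were below the filter of 0.1 FPKM, so it was tested only through its BMP4 level. Both calls were lost with a pseudocount of 1, at log2 fold changes of 0.56 against control and 0.64 against bFGF/BMP4. By count, 1 of the 4 tested was higher and 1 lower with bFGF/BMP4, beside 16.5% and 14.1% of all genes tested. With BMP4, 2 were higher, Neurod4 among them, and 2 lower, beside 21.3% and 15.4%. In BMP4 against bFGF/BMP4, 1 was higher, Neurod4, and 2 lower, beside 8.41% and 5.14%.

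**Figure D4:**
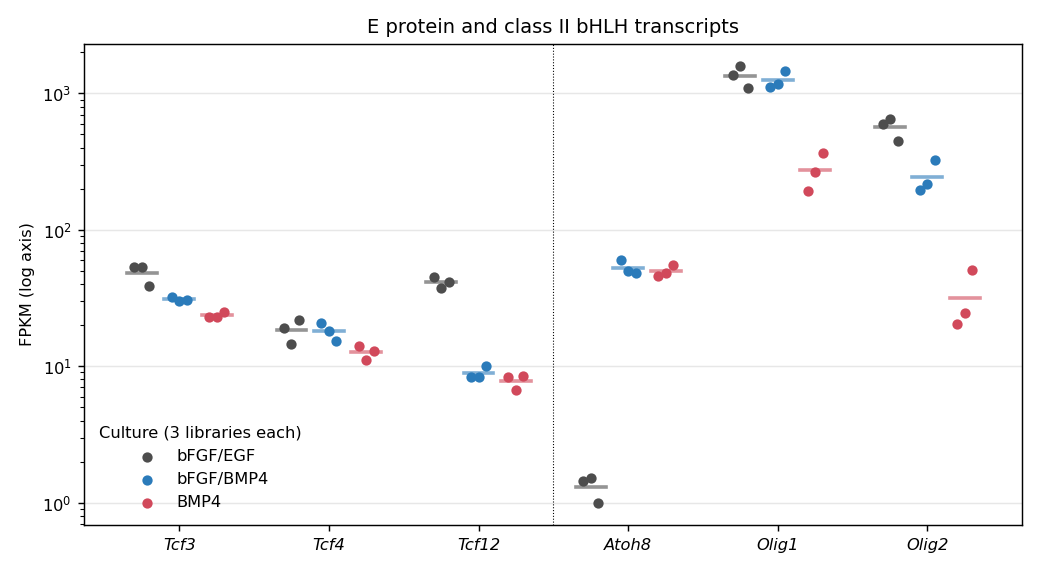
FPKM of 3 E proteins (left of the dotted line) and 3 class II bHLH factors on a log axis, with 1 point for each library and a line at the mean of 3. Tcf12 is at 41.3 FPKM in the controls and at 8.91 and 7.83 FPKM in the treated cultures on average, and Olig2 is lowest with BMP4.

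Hes and Hey factors are bHLH repressors, mostly known as Notch targets. Their list also held Bhlhe40 and Bhlhe41, which are not Hes or Hey genes. Of 9 tested, 5 were called higher with bFGF/BMP4, 5 higher and 1 lower with BMP4, and 1 lower in BMP4 than in bFGF/BMP4. Over all genes tested the shares were 16.5% higher with bFGF/BMP4, 21.3% higher and 15.4% lower with BMP4, and 5.14% lower between the BMP4 media. Hes5 averaged 1.44 ± 1.12, 26.9 ± 1.5 and 7.64 ± 1.51 FPKM, and its log2 fold change between the BMP4 media, -1.82, had an adjusted p of 0.084 and was not called, although the libraries did not overlap, as for 18.3% of the genes in the lower direction. It was called with limma-voom (adjusted p = 0.00061), with only the groups compared (0.00022), with a pseudocount of 1 (0.0045) and without bFGF/EGF replicate 3 (9.7e-05). Hey1, which is also on the list of BMP targets, averaged 10.7 ± 2.3, 76.6 ± 25.9 and 136 ± 33 FPKM. Bhlhe41 averaged 1.44 ± 0.44, 26.2 ± 1.8 and 11.7 ± 2.4 FPKM and was the member called lower without bFGF, at a log2 fold change of -1.17 (adjusted p = 0.004).

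The other BMP/SMAD targets give a scale for the Id genes. All 10 on the list were tested and called higher in both comparisons with control, where 16.5% and 21.3% of the genes tested were called higher. Smad6, Msx2 and Grem1 averaged under the filter of 0.1 FPKM in the controls. They were thus tested only through the treated cultures, which largely set the direction of their calls. The median log2 fold change of the 10 was 3.18 with bFGF/BMP4 and 4.01 with BMP4, or 3.61 and 4.403 when the genes listed at 0 in the controls were set to 3 fragments in each library. The median over all genes tested was 0.06 and 0.10. Between the BMP4 media 1 of 10, Grem1, was called higher, beside 8.41% of the genes tested. The median there was 0.56, beside 0.00 over all genes.

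Noggin, the secreted BMP antagonist encoded by Nog, measured 0.347, 0.522 and 0.434 FPKM in the controls, 146, 293 and 300 FPKM with bFGF/BMP4 and 191, 248 and 202 FPKM with BMP4. Its log2 fold changes against control were 8.79 and 8.65, above those of Id4. Smad6, an inhibitory SMAD, was listed at 0 in the 3 control libraries and measured 18.6, 33.2 and 25.3 FPKM with bFGF/BMP4 and 39.4, 42.4 and 30.4 FPKM with BMP4. Smad7, the other inhibitory SMAD, averaged 0.658 ± 0.185, 18.2 ± 7.3 and 25.4 ± 1.4 FPKM.

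Grem1, a further antagonist, averaged 0.0480 ± 0.0173, 0.402 ± 0.040 and 1.94 ± 0.88 FPKM, with a log2 fold change of 1.94 (SE 0.33, adjusted p = 0.002) between the BMP4 media. Its call with bFGF/BMP4 was lost with a pseudocount of 1, at a log2 fold change of 0.42 (limma adjusted p = 0.077). The homeobox gene Msx1 averaged 1.01 ± 0.42, 4.94 ± 1.15 and 7.78 ± 0.55 FPKM, and Msx2 was listed at 0 in the controls and averaged 1.18 ± 0.51 and 1.90 ± 0.37 FPKM. Bmper, a secreted modulator of BMP, averaged 4.97 ± 1.04, 11.1 ± 1.5 and 12.8 ± 0.7 FPKM. The pseudoreceptor gene Bambi averaged 1.26 ± 0.33, 2.89 ± 0.91 and 3.66 ± 1.48 FPKM. Its call with bFGF/BMP4 was lost without bFGF/EGF replicate 1 (adjusted p = 0.068), without bFGF/BMP4 replicate 2 (adjusted p = 0.069) and without bFGF/BMP4 replicate 3 (adjusted p = 0.062). It was also lost with a pseudocount of 1 and with quantile normalization, at log2 fold changes of 0.77 and 0.93, short of 2-fold. Bmper had a log2 fold change of 0.998 with bFGF/BMP4 without bFGF/EGF replicate 3, just under the threshold.

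Of 10 receptors and SMADs tested, 4 were called higher with bFGF/BMP4, 3 higher and 1 lower with BMP4, and 1 lower in BMP4 than in bFGF/BMP4, beside 16.5% of all genes tested higher with bFGF/BMP4, 21.3% higher and 15.4% lower with BMP4, and 5.14% lower between the BMP4 media. With BMP4, both counts are near these shares. Acvrl1 was below the filter. The type I receptor gene Bmpr1a measured 26.1, 17.3 and 26.3 FPKM in the controls, 86.7, 104 and 99.6 FPKM with bFGF/BMP4 and 122, 127 and 123 FPKM with BMP4. Its log2 fold changes were 2.08 (adjusted p = 6.1e-06) and 2.44 (adjusted p = 1.5e-06). Bmpr1b averaged 9.17 ± 1.29, 18.6 ± 0.8 and 23.7 ± 3.0 FPKM, and its value with bFGF/BMP4 was just past 2-fold, at 1.02, and between 0.96 and 0.99 when bFGF/EGF replicate 2 or 3 or bFGF/BMP4 replicate 1 was left out. Bmpr2, the type II receptor gene, averaged 11.9 ± 1.8, 33.9 ± 7.0 and 23.3 ± 3.6 FPKM and was called with bFGF/BMP4 at 1.49 (adjusted p = 0.00012).

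Among the SMADs that carry the signal, Smad9 rose from 0.464 ± 0.082 FPKM in the controls to 13.0 ± 1.2 FPKM with bFGF/BMP4 and 8.89 ± 0.81 FPKM with BMP4, with log2 fold changes of 4.55 (adjusted p = 4.4e-08) and 4.002 (adjusted p = 5.6e-08). Smad1 averaged 9.05, 7.98 and 9.02 FPKM and Smad4 29.1, 24.7 and 24.98 FPKM, without a call. Smad5 averaged 30.9, 19.4 and 19.1 FPKM, and its differences from control had adjusted p of 0.00094 and 0.00064 but stayed under 2-fold. Acvr1 averaged 7.31, 9.14 and 7.75 FPKM and Acvr2a 7.82, 7.15 and 5.21 FPKM, without a call. Acvr2b averaged 2.25 ± 0.33, 1.48 ± 0.49 and 0.629 ± 0.340 FPKM and was called lower with BMP4 against control. Its call against bFGF/BMP4 stood at an adjusted p of 0.05 and was lost when any 1 library other than BMP4 replicate 1 was left out (adjusted p = 0.055 to 0.16).

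**Figure D5:**
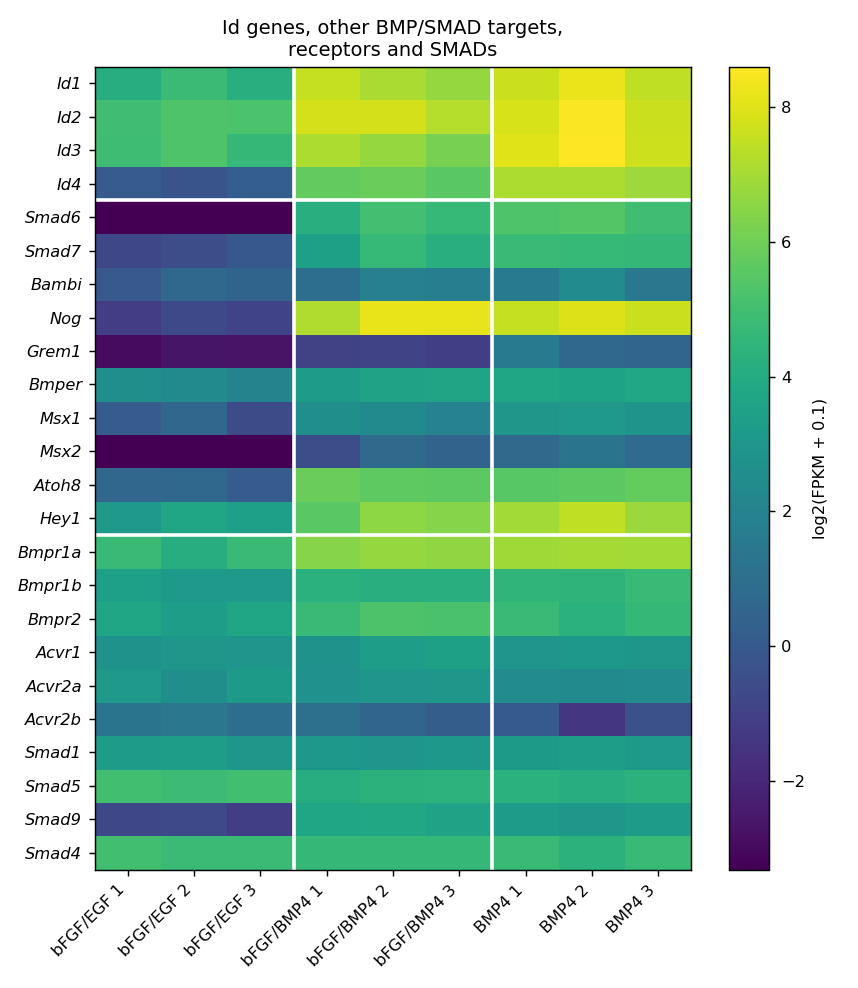
Log2(FPKM + 0.1) in each library for the Id genes (top block), 10 other BMP/SMAD targets (middle block) and 10 receptors and SMADs (bottom block), from dark (low) to bright (high). The 10 targets are brighter in the treated libraries than in the controls, and in the bottom block Bmpr1a and Smad9 show this most clearly.

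Genes of cell cycle control that are linked to the Id proteins were followed too. The pocket proteins, which Id2 can bind, had 1 higher and 1 lower of 3 with bFGF/BMP4, 2 higher and 1 lower with BMP4 and 1 lower between the BMP4 media. Of all genes tested, 16.5% were higher and 14.1% lower with bFGF/BMP4, 21.3% and 15.4% with BMP4, and 8.41% and 5.14% in BMP4 against bFGF/BMP4. Rbl1 averaged 8.88 ± 3.23, 3.05 ± 1.11 and 0.835 ± 0.069 FPKM and was the lower one each time, while Rbl2 averaged 3.95 ± 0.43, 9.66 ± 0.74 and 9.69 ± 1.34 FPKM and Rb1 9.44 ± 1.54, 18.3 ± 1.0 and 21.4 ± 1.1 FPKM. Over the 9 libraries, the highest mean of a gene overlapping Rbl2 was 13.6 FPKM, on the other strand, and that at Rb1 was 5.14 FPKM. Of 7 CDK inhibitors, which Id proteins are known to repress, none was called with bFGF/BMP4 in limma (4 had an unadjusted p under 0.05, and limma-voom called 0), 1 was higher and 1 lower with BMP4, and 1 was higher in BMP4 than in bFGF/BMP4, counts that are near or below the shares of all genes. Cdkn2b averaged 9.98 ± 3.67, 15.6 ± 1.1 and 47.6 ± 10.1 FPKM and was the higher one, and Cdkn2c averaged 49.7 ± 14.2, 30.03 ± 2.36 and 20.1 ± 4.9 FPKM. Cdkn2a, also known as a senescence gene, averaged 69.6 ± 15.5, 46.3 ± 5.1 and 83.1 ± 24.2 FPKM and was not called.

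Among 4 genes of Id protein turnover, 2 were lower in both treated cultures and 1 in BMP4 against bFGF/BMP4, beside 14.1%, 15.4% and 5.14% of all genes tested. Cdc20, an activator of the ubiquitin ligase APC/C, averaged 72.1 ± 34.5, 21.7 ± 2.9 and 4.88 ± 0.46 FPKM. It overlaps Elovl1 on the other strand, which averaged 22.8 FPKM over the 9 libraries. Usp1, the deubiquitinase that stabilises Id proteins, averaged 33.3 ± 11.9, 14.8 ± 2.4 and 7.37 ± 0.39 FPKM. With bFGF/BMP4 it was called at a log2 fold change of -1.13 (adjusted p = 0.0019), and this was -0.85 without bFGF/EGF replicate 1 and -0.99 without bFGF/BMP4 replicate 1.

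Targets of FGF and ERK signalling were read because only 1 of the BMP4 media held bFGF. Of 9 such genes 3 were lower with bFGF/BMP4, 9 with BMP4, and 8 were lower in BMP4 than in bFGF/BMP4, beside 14.1%, 15.4% and 5.14% of all genes tested. The median log2 fold change was -0.31, -4.46 and -3.30 in that order. Etv4 averaged 36.9 ± 4.4, 36.1 ± 0.9 and 0.657 ± 0.300 FPKM, Dusp6 116 ± 39, 84.9 ± 41.5 and 2.63 ± 0.84 FPKM, and Spry4 47.2 ± 14.3, 15.7 ± 6.7 and 1.496 ± 0.625 FPKM. Egr1 averaged 41.8 ± 13.6, 2.44 ± 1.32 and 1.64 ± 0.37 FPKM and was low in both.

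Over the 9 libraries, 7454 protein-coding genes with a mean of at least 5 FPKM were ranked by the Pearson correlation of log2(FPKM + 0.1) with each Id gene. The 9 points fall into 3 cultures, so a high r mainly describes the order of the culture means. Id1 was most alike Fam234a (r = 0.998), Acadvl (0.997) and Slc25a18 (0.993), and Id2 was most alike Ginm1 (0.995), Pcbd2 (0.993) and Fam234a (0.990). For Id3 the genes were Fbxo44 (r = 0.992), Col9a3 (0.990) and Mid1ip1 (0.990), and for Id4 they were Lyz2 (r = 0.998), Chka (0.998) and Rida (0.997). Fam234a averaged 6.51, 22.6 and 29.1 FPKM, and Rida averaged 1.46, 31.8 and 66.5 FPKM. Among the Id genes themselves r was 0.924 for Id3 and Id4 and up to 0.991 for Id1 and Id2.

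The libraries held 15892854 to 17419822 fragments on genes, and correlated at 0.950 to 0.964 within a culture and at 0.810 to 0.915 between cultures. The label of neural stem cells was checked with 7 markers, all above 0 in each culture, with summed levels of 1706 to 1814 FPKM in the controls, 682 to 783 FPKM with bFGF/BMP4 and 1498 to 1939 FPKM with BMP4, most of it Vim and Fabp7. Nes fell from 151 FPKM in the controls to 3.55 FPKM with bFGF/BMP4 and 15.8 FPKM with BMP4. Of the 7, 3 were called lower and 1 higher with bFGF/BMP4, 1 lower and 1 higher with BMP4, and 3 higher in BMP4 than in bFGF/BMP4. Over all genes tested the shares were 14.1% lower and 16.5% higher with bFGF/BMP4, and 15.4% and 21.3% with BMP4. Between the BMP4 media they were 5.14% lower and 8.41% higher. The sum of 8 astrocyte markers moved with the Id genes, from 178 to 243 FPKM in the controls to 675 to 772 FPKM with bFGF/BMP4 and 3691 to 4573 FPKM with BMP4, where Gfap averaged 2566 FPKM and Aqp4 778 FPKM. By count 7 of the 8 were called higher and 1, Aldh1l1, lower in each comparison with control. Gfap and Gjb6 averaged under the filter of 0.1 FPKM in the controls. They were thus tested only through the treated cultures, which largely set the direction of these calls. Between the BMP4 media 5 of the 8 were higher and 2 lower with BMP4, and the shares of all genes given above stand beside these counts too. Aldh1l1 averaged 135 FPKM in the controls, 24.2 FPKM with bFGF/BMP4 and 58.1 FPKM with BMP4, and Slc1a2 averaged 12.6, 175 and 65.5 FPKM. The part of such cells in the Id levels was not tested, and in bulk RNA fewer cells of a type and less RNA per cell cannot be told apart. The 8 endothelial markers summed to at most 0.420, 2.16 and 4.28 FPKM in the 3 cultures, with 7 or 8 of them below 1 FPKM, Cldn5 listed at 0 in all 9 libraries and Cdh5 at no more than 0.0148 FPKM, and their part in the Id levels was not tested. The 6 mural markers summed to 3.97 to 15.0 FPKM, most of it Cspg4, and the 7 microglial markers to at most 1.75 FPKM. The 6 ependymal markers, with Foxj1 the most abundant, summed to 7.97 to 12.4 FPKM in the controls, 10.4 to 11.4 FPKM with bFGF/BMP4 and 58.0 to 70.1 FPKM with BMP4, and their part in the result was not tested. In the controls, with bFGF/BMP4 and with BMP4, the 6 oligodendrocyte markers summed to 19.2 to 28.9, 32.4 to 44.3 and 47.8 to 59.9 FPKM, and the 7 neuronal markers to 75.9 to 91.9, 47.6 to 53.3 and 142 to 213 FPKM.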

How the data were processed

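RNA-seq of 9 libraries of mouse NSCs was analysed from the FPKM table that the authors deposited. The submitters' processing notes name fastp 0.19.7, HISAT2 2.0.5, featureCounts 1.5.0-p3 and mm39; the FPKM program, annotation release and strand setting are not given in the sources used here, so reads of overlapping genes on opposite strands may be shared. Genes that averaged 0.1 FPKM or more were tested with limma 3.58.1 in R 4.3.3, with a trend, on log2(FPKM + 0.1), all libraries in the fit and Benjamini-Hochberg adjustment; fold changes on this scale understate those of low genes. The test was checked on simulated data for BMP4 against bFGF/BMP4, where 91.5% of 200 changed genes among 19604 were called, as were 6 unchanged genes. The changed genes were well covered and were given changes past 2-fold, so the check does not measure how often smaller changes or low genes are called. Fragments were rebuilt as the smallest whole numbers that give the FPKM values. Shares and ratios were tested with exact permutation tests. Named were the Id genes, every tested gene of 4 lists (E proteins, class II bHLH factors, BMP/SMAD targets, BMP receptors and SMADs), the 2 largest changes in each comparison in the other lists, and the 3 genes most like each Id gene. One listed gene is not reported here and was left out of the lists. The members, lists and motifs were chosen with earlier results of these data known. Positions of genes come from GENCODE on GRCm39. The 19 alternatives to each test are described after the report.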

Additional observations from a re-analysis of the deposited data

How the results depend on the processing

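The 4 Id genes had the same calls and directions in all 3 comparisons under each of 19 alternatives: a pseudocount of 1, no filter or a filter at a mean of 1 FPKM, TPM, median-ratio and quantile scaling, limma-voom on rebuilt fragments, only the groups compared, no fold threshold, each library removed singly, and the replicate block. The pseudocount of 1 gave Id4 lower log2 fold changes, 4.80 and 6.10 against control. Leaving out 1 library gave 0.43 to 0.88 for Id1, 0.09 to 0.54 for Id2, 1.18 to 1.66 for Id3 and 1.22 to 1.41 for Id4 in BMP4 against bFGF/BMP4. Over all alternatives the adjusted p of Id1 there was 0.043 to 0.36 in limma, and its fold change stayed under 2.

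Same-numbered libraries had correlations of their deviations of -0.08 to 0.12, and not every library correlated best with its own number. With 3 libraries in each culture, these values cannot show whether the numbers pair the samples, and the main fit left them unpaired. With the replicate block the adjusted p of Id1 was 0.068 and that of Id2 0.25 in BMP4 against bFGF/BMP4, and the fixed lists held 28, 40 and 17 called genes in place of 27, 40 and 17.

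Without division by gene length, by the construction of this alternative, long transcripts weigh more. In bFGF/EGF-treated NSCs the shares were then 14.0% for Id1, 51.4% for Id2 and 2.18% for Id4, with a log2 ratio of Id to E protein fragments of -2.98. With bFGF/BMP4 they were 15.5%, 47.3%, 17.5% and 19.6% for Id1 to Id4, with a log2 ratio of 0.46, and with BMP4 13.6%, 33.4%, 26.0% and 27.0%, with a log2 ratio of 1.75. The log2 ratio on the FPKM scale was -0.30, 3.10 and 4.33.

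Over all genes, a pseudocount of 1 lowered the number called from 6174 to 3544, from 7400 to 4364 and from 2738 to 1449 in the 3 comparisons, and without a fold threshold it was 9819, 11096 and 4271. Of 1287 alternative values for 68 calls of the named genes other than the Id genes, 1251 stayed called, 36 did not and none changed direction. The lost calls were of Bmpr1b, Bambi, Grem1, Usp1, Bmper, Tcf3, Neurod4 and Acvr2b, the cause of which was not tested. Of 52 values of these named genes that were not called, 15 were called under at least 1 alternative, most often Bmpr2 in BMP4 against bFGF/EGF and Usp1 in BMP4 against bFGF/BMP4, each under 5. With 3 libraries in each culture a permutation p cannot go below 0.1.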
